A study of Homo sapiens with 9 samples.

Results

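Chromosome 19 carries more C2H2 zinc finger genes than any other human chromosome, and the genes described here are its protein-coding members with a symbol of ZNF followed by digits and an optional letter. The annotation gave 246 such genes, among 56347 genes to which the transcripts of the files were matched. A transcript was listed for 245 of them, ZNF8 being the exception. Of these 245, 191 had at least 10 estimated counts in at least 3 libraries and were tested. The other 54 fell below that filter, and 10 of them were at 0 in every library.

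The study measured mRNA in the nucleus and the cytoplasm of HEK293 cells, a line derived from human embryonic kidney, after depletion of WTAP and KIAA1429 (now named VIRMA, also called Virilizer). Both proteins are subunits of the complex that writes N6-methyladenosine (m6A) on mRNA. Control cells received a control siRNA and RNAi cells received the siRNAs against both subunits at 10 nM, with a second transfection at 48 h and harvest at 72 h. The methods call the cells 293 T, and nothing in the labels says that the replicates came from separate cultures, so the p-values measure the spread between these libraries only. There were 3 libraries of control nuclei, 3 of RNAi nuclei, 2 of RNAi cytoplasm and 1 of control cytoplasm. The comparison the design implies is whether mRNAs moved between the fractions when the methyltransferase complex was depleted.

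C2H2 zinc finger proteins bind DNA through arrays of small finger domains, each of which reads a few bases, and neighbouring fingers are joined by a conserved linker. Most of the chromosome 19 genes also encode a KRAB domain, which recruits the corepressor TRIM28 and through it the histone methyltransferase SETDB1 to chromatin. Many KRAB zinc finger proteins silence transposable elements, and the family grew by tandem duplication, so its members lie in blocks of similar sequence.

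The total of the estimated counts ran from 11627403 to 19036141 per library, of which 83.07% to 88.31% fell on matched transcripts, and 3 counts were worth 0.19 to 0.303 CPM, the counts scaled to a common total, when the plain library totals were used. The CPM of single genes is given on totals after TMM scaling, which multiplied them by 0.8301 to 1.131, and the summed level of the family is given on both scales. WTAP ran from 23.0 to 27.6 CPM in control nuclei and from 12.2 to 15.5 CPM in RNAi nuclei, and VIRMA from 13.2 to 19.8 and from 5.56 to 9.18 CPM. The groups did not overlap for either target, and both fell in RNAi nuclei (log2 fold change -0.83, edgeR adjusted p = 0.0169, and -1.08, adjusted p = 0.0314). The nuclear RNA NEAT1 was at 13.0 CPM in control cytoplasm, at 9.97 and 10.9 CPM in RNAi cytoplasm and at 121 to 211 CPM in the nuclear libraries. Of 8 genes known from HEK293 cells, 6 were matched and each of the 6 had at least 100 counts in every library, while 7 of the 8 matched genes that define other cell types had at most 7 counts in any library. The exception was COL3A1, with 12 to 57 counts. As in any bulk sample, fewer cells with an RNA cannot be told apart from less of it per cell.

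The repeated feature of the family is shown here as a stretch of genomic sequence on GRCh37, 27 bases from the last histidine codon of one finger through the linker to the start of the next. The capitals mark the 5 codons of the conserved linker (threonine, glycine, glutamate, lysine and proline), in the orientation of the gene. The 6 genes are named again in the results below, ZNF829, ZNF260, ZNF616 and ZNF765 for a change of fraction after RNAi and ZNF331 and ZNF233 for their nuclear share.
ZNF829 (chr19:37382967-37382993, minus strand): cacACTGGTGAGAAACCCtatgaatgt
ZNF260 (chr19:37006054-37006080, minus strand): catACTGGAGAGAAACCTtatgaatgt
ZNF616 (chr19:52619520-52619546, minus strand): catACCGGTGAAAAACCTtacaaatgt
ZNF765 (chr19:53911601-53911627, plus strand): cacACTGGTGAGAAACCTtacaagtgt
ZNF331 (chr19:54080271-54080297, plus strand): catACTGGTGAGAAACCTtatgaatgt
ZNF233 (chr19:44778149-44778175, plus strand): cacACTGGAGAGAAACCAtataaatgt

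A linker of this kind was found 1369 times in 211 of the genes. The most frequent 15-base form, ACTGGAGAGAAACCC, accounted for 310 of the linkers (22.6%), and the form ACTGGAGAGAAACCT for 198 more. Reads inside such a repeat cannot be placed by that stretch alone. Of the 31-base words in a member's transcript with most counts, a median of 91.2% occurred in no other gene. Of the tested members, 115 were over 90% and 10 were under 50%. The 115 members over 90% gave 64 called higher and 12 lower in the nucleus of RNAi cells. There were 44 and 3 among the 66 members between 50% and 90%, and 4 and 1 among the 10 under 50%. Over all tested genes 32.9% were called higher and 24.9% lower.

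Detection of the family differed by fraction and treatment. In the nuclear libraries 172 to 181 members reached 10 estimated counts in control cells and 175 to 188 in RNAi cells. In the cytoplasm 176 members reached it in the control library, but only 138 and 115 in the RNAi libraries. The last 2 libraries lay below the other 7, and they were also the libraries with the fewest genes of any kind at 10 counts or more (13725 and 12908, against 14393 to 16296 in the rest). Among the tested members 72.3% and 60.2% reached 10 counts in the RNAi cytoplasmic libraries, where 84.4% and 79.7% of all tested genes did. Because the filter asked for 3 libraries of any kind, 15 tested members passed it through nuclear libraries alone, and 50 had under 10 counts in both RNAi cytoplasmic libraries.

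**Figure D1:**
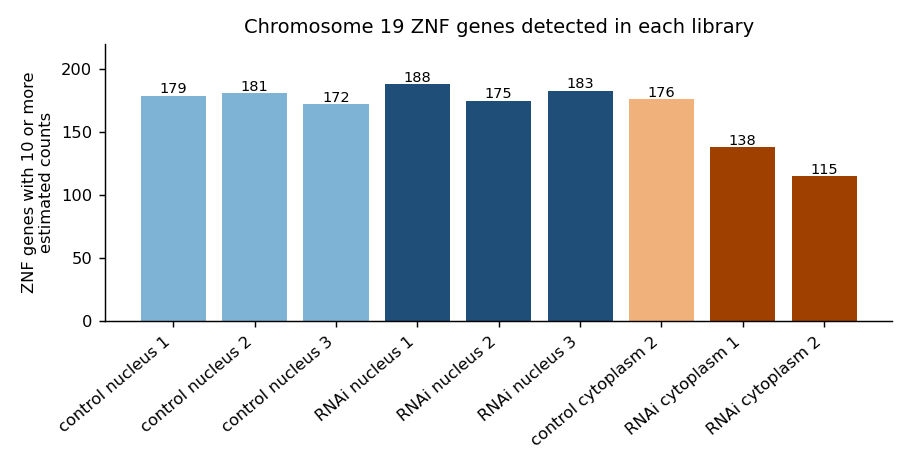
The number of chromosome 19 ZNF genes with 10 or more estimated counts (vertical axis) in each of the 9 libraries, coloured by fraction and treatment. The RNAi cytoplasmic bars stand at 138 and 115, below the other 7 bars at 172 to 188.

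Most members were expressed at a low level and a handful carried much of the signal. The mean TPM over the 9 libraries, which is a level per transcript length, had a median of 1.56 over the tested members. The 5 highest were ZNF580 (364 TPM), ZNF581 (67.2 TPM), ZNF414 (67.1 TPM), ZNF358 (56.2 TPM) and ZNF576 (39.1 TPM), all GC-rich genes with 3 to 9 fingers and no KRAB-like stretch. ZNF580 and ZNF581 overlap on the plus strand (chr19:56146382-56154836 and chr19:56146825-56156989), so the division of counts between them rests on the quantification. ZNF580 alone held 8.26% to 11.5% of the family's counts in control nuclei, 14.2% to 15.2% in RNAi nuclei, 24.0% in control cytoplasm and 33.3% and 33.7% in RNAi cytoplasm. The summed level of the family was 1461 ± 191 CPM in control nuclei and 1713 ± 127 CPM in RNAi nuclei (mean ± SD, n = 3), on plain library totals, a difference that an exact permutation test did not separate from the spread (two-sided p = 0.2, where the smallest possible is 0.1). On TMM-scaled totals the nuclear sums did not overlap, at 1356.0 to 1473.2 CPM in control and 1573.0 to 1674.6 CPM in RNAi cells. In the cytoplasm the sum was 1810.2 CPM in the control library and 1944.8 and 2033.4 CPM in the RNAi libraries on plain totals, and 1741.6, 2140.3 and 2451.5 CPM with TMM. Without the 5 most abundant members the order turned with the scale. The cytoplasmic sums were then 1098.0 CPM in control and 997.7 and 1024.6 CPM in RNAi libraries on plain totals, but 1056.4, 1098.0 and 1235.3 CPM with TMM.

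Within RNAi cells the family lay on the nuclear side. A member was called where the edgeR quasi-likelihood test gave an adjusted p under 0.1 and a log2 fold change beyond 0.5. Of the 191 tested members, 112 (58.6%) were higher in the nucleus than in the cytoplasm, where 32.9% of all 16181 tested genes were. Another 16 (8.38%) were lower, against 24.9% of all genes. The median log2 difference was 1.00 over the members and 0.04 over all genes, and 1.27 and 0.30 when libraries were scaled by size alone. In control cells 46 members (24.1%) were higher in the nucleus, against 28.0% of all genes, and 13 (6.81%) were lower, against 22.7%, with a median of 0.29. The control comparison rests on 1 cytoplasmic library. With 1 cytoplasmic library left out, the comparison in RNAi cells gave 96 or 95 members higher, where 30.5% or 30.2% of all genes were. Of the members called higher, 41 were shared, which is 36.6% of the 112 in RNAi cells and 89.1% of the 46 in control cells, where over all genes the shared calls were 64.9% and 76.0%. Another 7 members (3.66%) were lower in both, where 14.0% of all genes were. ZNF146, ZNF260 and ZNF616 (1.57%, against 1.69% of all genes) were higher in the nucleus of RNAi cells and lower in that of control cells.

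These counts include members whose direction the filter on low counts set. The 15 members with under 10 counts in every cytoplasmic library passed it through nuclear libraries alone, and 14 of them are among the 112 and 7 among the 46. Without them 98 of 176 members (55.7%) were higher in the nucleus of RNAi cells and 16 (9.09%) lower, where 26.2% and 27.8% of all genes with 10 counts in a cytoplasmic library were, with medians of 0.88 and -0.10. In control cells 39 of the 176 (22.2%) were then higher, against 22.5% of such genes, and 13 (7.39%) lower, against 25.4%.

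**Figure D2:**
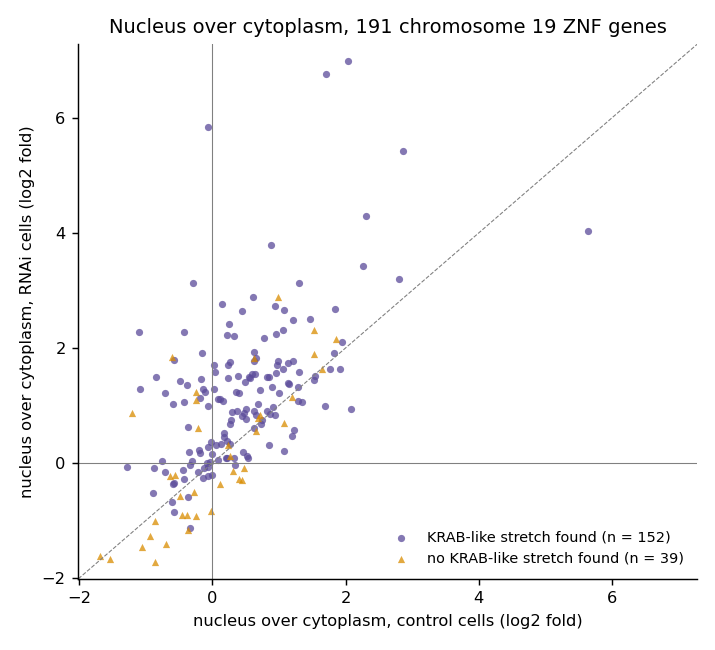
The log2 fold of nucleus over cytoplasm in control cells (horizontal axis) and in RNAi cells (vertical axis) for the 191 tested genes, with purple circles for the 152 genes with a KRAB-like stretch and orange triangles for the 39 without, and a dashed line where both are equal. Most purple circles lie above the line, and the orange triangles extend to the lower left. The 3 genes at 0 in both RNAi cytoplasmic libraries are drawn at fitted values that are not bounds.

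The members farthest to the nuclear side were hardly detected in the RNAi cytoplasm. Among them ZNF331, ZNF233, ZNF671 and ZNF844 belong to the 15 that passed through nuclear libraries alone, so their values are a description with no test. ZNF331, an imprinted KRAB zinc finger gene, had 37, 28 and 26 counts in RNAi nuclei and 1 and 0 counts in RNAi cytoplasm. Per plain library total it was 61.4 times higher in the nucleus, with an exact 95% counting interval of 10.7 to 2450 that covers counting error only. In control cells ZNF331 had 22, 16 and 18 counts in nuclei and 3 in cytoplasm (fitted log2 fold change 2.86, SE 0.63). The nuclear libraries were above the cytoplasmic ones in both treatments.

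ZNF233 had 18, 9 and 20 counts in RNAi nuclei and 0 in both cytoplasmic libraries, and ZNF671 had 17, 10 and 13 against 0 and 0. Set against a floor of 3 counts over the group, ZNF233 was at least 8.85-fold higher in the nucleus and ZNF671 at least 7.53-fold higher. ZNF468 had 6, 3 and 12 nuclear counts against 0 and 0, at least 3.95-fold higher (edgeR adjusted p = 0.0412), but its call was lost without RNAi cytoplasmic library 1 (adjusted p = 0.148) or 2 (0.103). ZNF844 had 8, 20 and 13 nuclear counts against 0 and 1, a ratio of 27.7 with an interval of 4.69 to 1120.

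On the cytoplasmic side stood the short, GC-rich members. ZNF580, which encodes a protein with 3 fingers, was at 223, 251 and 250 CPM in RNAi nuclei and at 714 and 825 CPM in RNAi cytoplasm (log2 fold change -1.67, SE 0.15, edgeR adjusted p = 1.38e-05). ZNF524 was at 10.7 to 14.7 CPM in RNAi nuclei and at 33.2 and 49.4 CPM in RNAi cytoplasm (-1.71, SE 0.22, adjusted p = 0.000107). For ZNF358 and ZNF414 the difference was -1.62 and -1.45. The fractions did not overlap for any of these genes, and the same direction was called in control cells for ZNF580 (-1.54), ZNF358 (-1.69), ZNF414 (-1.05) and ZNF524 (-0.86). ZNF575, at 40 and 9 counts in RNAi cytoplasm and 8 to 13 in nuclei, was called lower in the nucleus only with RNAi cytoplasmic library 1 (log2 fold change -1.41 with it and -0.31 without it, edgeR adjusted p = 0.033 and 0.694), and the call was also lost with a length offset (0.237).

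Protein architecture went with the side, in counts that include the 15 members passing the filter through nuclear libraries alone. Of those 15, 14 were called higher in the nucleus of RNAi cells, and they were not separated by architecture. Over all tested genes 32.9% were higher and 24.9% lower. A KRAB-like stretch was found by pattern in 199 of the 245 predicted proteins, and the pattern misses some KRAB genes. Of the 152 tested members with the stretch, 97 (63.8%) were higher in the nucleus of RNAi cells and 2 were lower, with a median of 1.13. Of the 39 without it, 15 (38.5%) were higher and 14 lower, with a median of -0.14. Among members with at most 6 fingers 4 of 18 were higher and 9 lower, and for 7 to 11, 12 to 16 and 17 or more fingers 40 of 67, 43 of 70 and 25 of 36 were higher.

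GC content ran alongside both features. The counts by GC content include the same 15 members, and the shares of all genes in these GC classes were not counted. The median GC content of the transcript with most counts was 42.6% in tested members with the KRAB-like stretch and 58.7% in those without. Below 45% GC, 75 of 109 members with the stretch were higher in the nucleus of RNAi cells and 12 of 15 without it. At 50% GC and above, 3 of 10 members with the stretch were higher and 2 lower, and 2 of 22 without it were higher and 14 lower.

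After RNAi the nuclear over cytoplasmic ratio rose for 22 of the 191 members (11.5%), where 10.4% of all tested genes rose, and fell for 3 (1.57%), where 7.87% fell. The share that rose is close to the background, and the share that fell is below it. The median log2 change was 0.36 over the members and -0.05 over all genes. A positive value was found for 137 of the 191 members and for 7634 of the 16181 tested genes. Members at 0 in a group, set to their bound, left the median at 0.37. When libraries were scaled by their size alone in edgeR, 29 rose and 0 fell, with medians of 0.65 for the members and 0.23 for all genes. The shares of all genes that rose or fell under that scaling were not counted. This comparison, the cytoplasmic comparison and the nuclear comparison share libraries, so their values are given side by side and none is support for another.

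ZNF146, a well measured member, encodes an array of 10 fingers with no KRAB domain. It was at 18.5, 13.4 and 17.2 CPM in control nuclei and at 19.3, 20.9 and 21.8 CPM in RNAi nuclei. In the cytoplasm it was at 37.6 CPM in the control library and at 10.5 and 12.2 CPM in the RNAi libraries. The nuclear groups lay close together without overlap, and both RNAi cytoplasmic libraries were below every other library. The ratio rose by 2.07 on the log2 scale (SE 0.24, edgeR adjusted p = 0.00162), with a nuclear change of 0.34 (adjusted p = 0.196) and a cytoplasmic change of -1.73 (adjusted p = 0.000987).

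ZNF260 had the same order of groups. Its level was 3.61 to 5.56 CPM in control nuclei, 5.63 to 6.86 CPM in RNAi nuclei, 6.57 CPM in control cytoplasm and 1.87 and 1.53 CPM in RNAi cytoplasm. Both RNAi cytoplasmic values lay below all others, and the nuclear groups did not overlap. The ratio rose by 2.46 (SE 0.39, edgeR adjusted p = 0.00557), and the cytoplasmic change was -1.93 (adjusted p = 0.00397).

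ZNF780B differed in that its nuclear level also rose. It was at 4.33, 2.79 and 3.54 CPM in control nuclei, at 7.86, 8.06 and 8.28 CPM in RNAi nuclei, at 2.98 CPM in control cytoplasm and at 1.56 and 1.42 CPM in RNAi cytoplasm. The RNAi nuclei stood above all other libraries and the RNAi cytoplasm below them. The ratio rose by 2.17 (SE 0.38, edgeR adjusted p = 0.00808), the nuclear level by 1.18 (adjusted p = 0.0172), and the cytoplasmic level fell by 0.99 (adjusted p = 0.0565). The nuclear call was lost without RNAi nuclear library 3 (adjusted p = 0.108) or control nuclear library 3 (0.101), and with a length offset (0.90, adjusted p = 0.29).

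**Figure D3:**
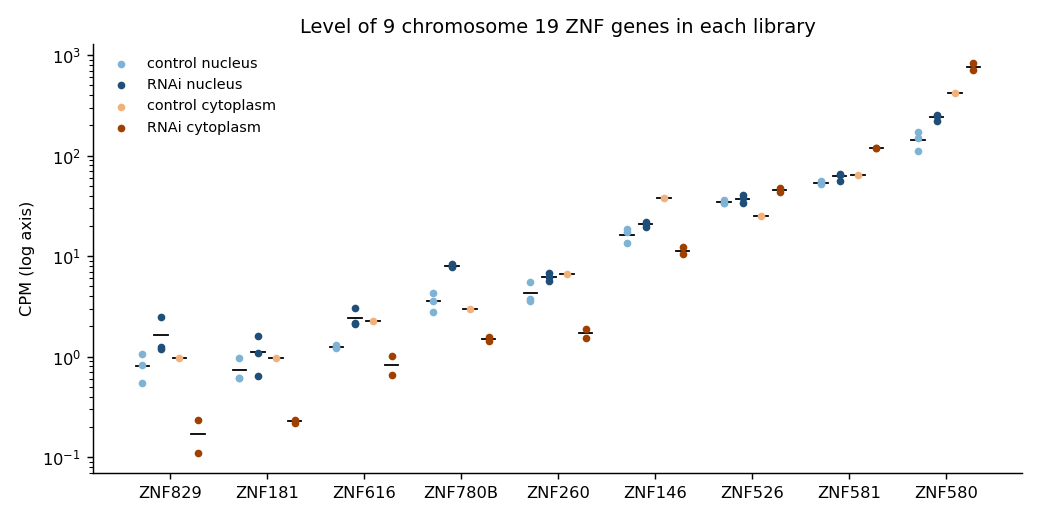
CPM (log axis) of 9 named genes in each library, with 1 point per library, black bars for group means and colours for fraction and treatment. From ZNF829 to ZNF146 the RNAi cytoplasmic points are the lowest of their gene, and for ZNF526, ZNF581 and ZNF580 they are the highest.

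The largest fold changes belonged to members with few counts. ZNF829 had 8, 12 and 12 counts in control nuclei, 18, 13 and 34 in RNAi nuclei, 16 in control cytoplasm and 3 and 1 in RNAi cytoplasm, and its ratio rose by 3.41 (SE 0.87, edgeR adjusted p = 0.0333). ZNF616 had 14 to 19 counts in control nuclei, 29 to 33 in RNAi nuclei, 37 in control cytoplasm and 13 and 6 in RNAi cytoplasm (2.33, SE 0.49, adjusted p = 0.0159). ZNF765 had 13 to 19, 22 to 27, 28, and 6 and 6 counts in the same order of groups (2.37, SE 0.55, adjusted p = 0.0238). In these 3 genes the RNAi cytoplasmic counts were below those of every other library. With a length offset the calls were lost for ZNF616 (1.51, edgeR adjusted p = 0.123) and ZNF765 (2.14, 0.102), and ZNF765 also lost its call with protein-coding transcripts alone (3.17, 0.124).

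ZNF181 (2.70), ZNF28 (2.61), ZNF708 (2.28) and ZNF606 (2.22) had adjusted p-values of 0.0548, 0.0912, 0.0813 and 0.0616 by edgeR, and each of these calls depended on single libraries. Leaving out 1 of several libraries took ZNF181 to an adjusted p of 0.101 to 0.123 (RNAi cytoplasm 1 or 2, RNAi nucleus 1) and ZNF606 to 0.105 to 0.147 (the same 3 libraries). ZNF708 went to 0.112 to 0.192 (RNAi cytoplasm 1 or 2, RNAi nucleus 2 or 3, control nucleus 3). ZNF28, which overlaps ZNF468 on the minus strand, went to 0.104 to 0.212 without any one of 7 libraries, all but control nucleus 3 among those that could be left out. Over all alternatives the highest adjusted p by edgeR or DESeq2 was 0.177 for ZNF181, 0.824 for ZNF28, 0.389 for ZNF708 and 0.293 for ZNF606.

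The ratio fell for 3 members, none with a KRAB-like stretch. ZNF526 was at 33.4 to 36.5 CPM in control nuclei and 34.0 to 40.3 CPM in RNAi nuclei, but at 25.2 CPM in control cytoplasm and at 43.7 and 47.6 CPM in RNAi cytoplasm. The nuclear groups overlapped, and both RNAi cytoplasmic libraries were above every other library. The ratio fell by 0.74 (SE 0.19, edgeR adjusted p = 0.0306). ZNF581 fell by 0.67 (adjusted p = 0.0279), with 64.0 CPM in control cytoplasm and 119 and 118 CPM in RNAi cytoplasm. ZNF446 fell by 0.57 (adjusted p = 0.0486), a call lost without RNAi cytoplasm 2 (0.144), RNAi nucleus 3 (0.102) or control nucleus 3 (0.153). The call of ZNF446 was also lost with no filter, with 10 counts in every library, with a length offset and with protein-coding transcripts alone. Scaled by library size, ZNF526 (-0.45, edgeR adjusted p = 0.321), ZNF581 (-0.39, 0.378) and ZNF446 (-0.29, 0.529) were not called.

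The change in the ratio followed GC content. Over the 191 members Spearman's rho between the log2 change of the ratio and GC content was -0.65, a description over genes that share the same libraries. Over all 16181 genes it was -0.53. Of 41 members under 40% GC 14 rose, with a median of 1.28, of 83 members from 40% to 45% 7 rose (median 0.54), and of 35 from 45% to 50% 1 rose (0.07). The medians were -0.15 from 50% to 60%, where 2 members fell, and -0.45 at 60% and above, where 1 fell. Over all tested genes 10.4% rose and 7.87% fell. Their shares within each GC class were not counted, so the counts by class cannot be called particular to the members. In control cells the nuclear over cytoplasmic difference had a rho of -0.04 with GC content over the members and of 0.23 over all tested genes.

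**Figure D4:**
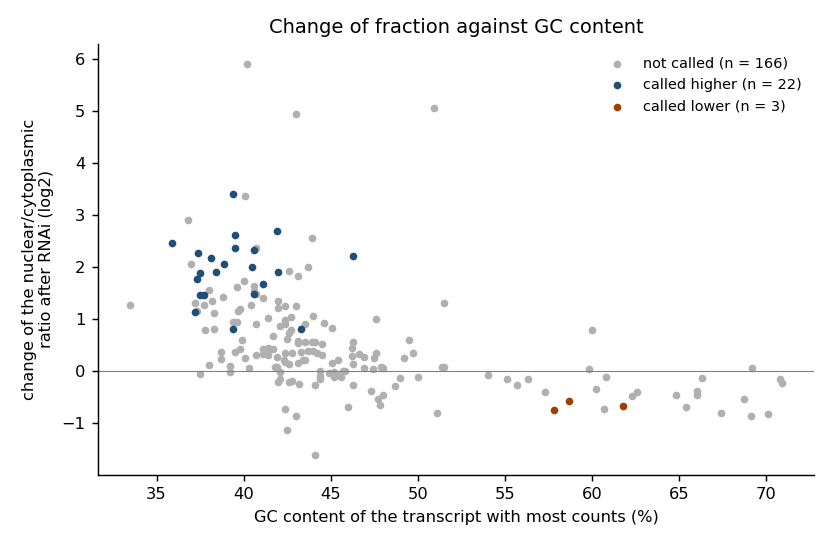
Change of the nuclear over cytoplasmic ratio after RNAi (log2, vertical axis) against GC content of the transcript with most counts (horizontal axis, %) for the 191 tested genes, with blue points for the 22 called higher, brown for the 3 called lower and grey for the rest. The blue points lie at low GC and the brown points at high GC.

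The library values show where this trend sat. Taken as the deviation of log2 CPM from a gene's mean over the 9 libraries, members under 40% GC had a median of -1.04 and -0.93 in the RNAi cytoplasmic libraries, -0.20 in control cytoplasm and 0.17 to 0.45 in the nuclear libraries. Members at 60% GC and above had medians of 0.40 and 0.89 in RNAi cytoplasm, 0.07 in control cytoplasm and -0.53 to -0.14 in the nuclear libraries. Over all tested genes under 40% GC the medians were -0.35 and -0.42 in RNAi cytoplasm and 0.52 in control cytoplasm. Over all genes at 60% GC and above they were 0.16 and 0.33 in RNAi cytoplasm and -0.17 in control cytoplasm, so that over all genes the slope had opposite signs in the cytoplasm of the 2 treatments.

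**Figure D5:**
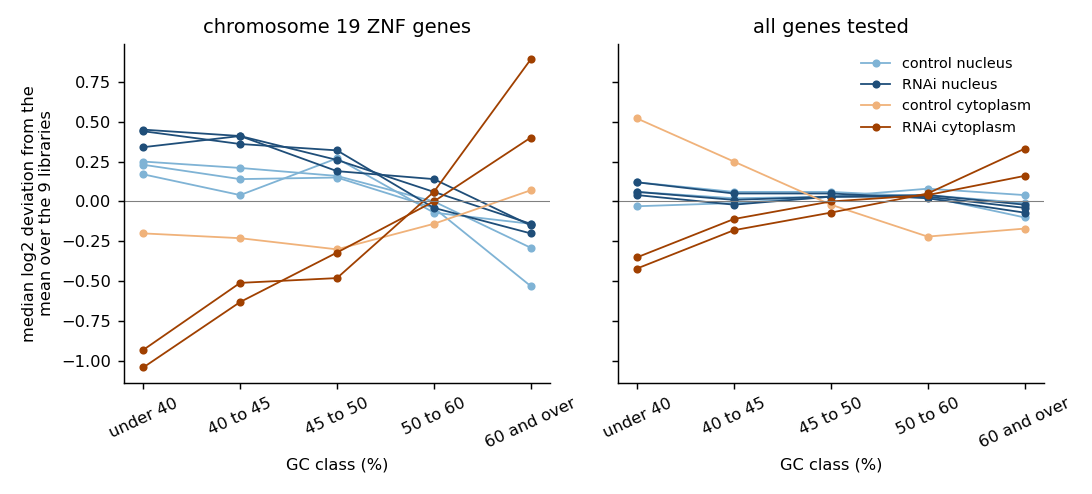
Median deviation of log2 CPM from each gene's mean over the 9 libraries (vertical axis) by GC class of the transcript (horizontal axis, %), with 1 line per library, for the tested chromosome 19 ZNF genes on the left and all tested genes on the right. The RNAi cytoplasmic lines rise with GC content in both panels, from -1.04 and -0.93 to 0.40 and 0.89 on the left.

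When each library's trend on GC content was removed, an alternative added after this relation was seen, the ratio rose for 3 members, ZNF146, ZNF260 and ZNF780B (1.57%), where 3.13% of all genes rose. It fell for 1 (0.524%, against 1.66% of all genes), ZNF529, which had not been called without the correction, and the medians were 0.15 for the members and -0.02 for all genes. With the trend removed, 101 members (52.9%) were higher in the nucleus of RNAi cells, all 101 among the 112 above, where 32.8% of all genes were, and 11 (5.76%) were lower, where 22.6% were. In control cells 75 members (39.3%) were then higher in the nucleus, where 28.5% of all genes were. Whether the trend arose in the cells or in the libraries was not tested.

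Between the nuclear libraries few members were called. By edgeR 5 of the 191 members were higher in RNAi nuclei (2.62%, where 2.47% of all genes were) and 0 were lower (2.42% of all genes), and the median change was 0.18 against 0.00 for all genes. At an unadjusted p under 0.05, 28 members were higher (14.7%, where 10.1% of all genes were) and 2 lower (1.05%, where 10.7% were), and DESeq2 also called 0 lower. Beside ZNF780B, the 5 comprised ZNF616 (log2 fold change 0.94, edgeR adjusted p = 0.0821), ZNF132 (0.75, 0.0687), ZNF580 (0.74, 0.0299) and ZNF226 (0.62, 0.0963). Over all alternatives the highest adjusted p was 0.29 for ZNF780B, 0.61 for ZNF616, 0.235 for ZNF132, 0.139 for ZNF580 and 0.462 for ZNF226. ZNF132 was at 3.71, 3.68 and 2.65 CPM in control nuclei and at 5.49, 5.65 and 5.88 CPM in RNAi nuclei. ZNF580 was at 112, 170 and 150 CPM in control nuclei and at 223, 251 and 250 CPM in RNAi nuclei. The groups did not overlap for either gene. The count fell to 0 without RNAi nuclear library 3 or without control nuclear library 3, to 1 without RNAi nuclear library 2 and to 2 without RNAi nuclear library 1, and it was 8 without control nuclear library 1. With the trend on GC content removed it was 8, where 2.88% of all genes were higher, and the 8 held all 5 named here. By the same edgeR fit 0 were lower, where 2.44% of all genes were.

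In the cytoplasm 21 members were lower after RNAi (11%, where 14.2% of all genes were) and 11 were higher (5.76%, where 10.4% were), with a median of -0.23 against 0.01. When libraries were scaled by size alone the split was 33 lower and 3 higher, with medians of -0.49 for the members and -0.24 for all genes. The shares of all genes called under that scaling were not counted, so this split cannot be called particular to the members. Of the 22 members whose ratio rose, 16 were called lower in the cytoplasm and 2 higher in the nucleus. Their median change was -1.45 in the cytoplasm and 0.52 in nuclei. They were chosen on the nuclear minus the cytoplasmic change, so a lower cytoplasmic or higher nuclear level is built into the choice. The matching shares among all genes whose ratio rose were not counted. The 11 that were higher included ZNF524 (log2 fold change 1.31, edgeR adjusted p = 0.0154), ZNF580 (0.88, 0.0186) and ZNF581 (0.88, 0.00308). All of these values set 2 RNAi libraries against 1 control library. Without RNAi cytoplasmic library 2, 11 members were lower and 7 higher in the cytoplasm, and the ratio rose for 12. The ratio rose for 13 members without RNAi nuclear library 1 and for 14 without RNAi nuclear library 2. With the trend on GC content removed, 2 members were lower (ZNF146 and ZNF606) and 3 were higher (ZNF524, ZNF526 and ZNF529), where 4.42% and 3.38% of all genes were.

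The members fall into blocks along chromosome 19, split where the gap to the next member exceeded 1000000 bases. Over all genes 32.9% were higher in the nucleus of RNAi cells and 10.4% rose in the ratio, and no block was tested against the others. The nuclear counts of the blocks include the 15 members that passed the filter through nuclear libraries alone, 14 of them called higher. Among them ZNF44, ZNF443 and ZNF844 lie in the block from ZNF653 to ZNF791, and ZNF221, ZNF230 and ZNF233 in that from ZNF575 to ZNF296. Other blocks hold such members too, among them ZNF331 in the block from ZNF175 to ZNF331 and ZNF540 in that from ZNF565 to ZNF573. ZNF177 lies in the block from ZNF557 to ZNF846. The blocks were not counted again without these members, so their nuclear shares are a description only. Without such genes the share over all genes was 26.2%. The block from ZNF175 to ZNF331 (chr19:52074536-54083523) had 29 tested members of 39, of which 22 (75.9%) were higher in the nucleus of RNAi cells and 5 (17.2%) rose in the ratio. The block from ZNF101 to ZNF254 (chr19:19779605-24312770) had the lowest share of tested members, 16 of 37, of which 12 (75%) were nuclear and 4 (25%) rose. In the block from ZNF565 to ZNF573 (chr19:36673178-38307940) 25 of 26 were tested, 19 (76.0%) were nuclear and 4 (16%) rose. The block at the end of the chromosome, from ZNF628 to ZNF446 (chr19:55987984-58992597), was the largest, with 54 of 58 tested, of which 25 (46.3%) were nuclear, 9 were cytoplasmic, 3 (5.56%) rose and 2 fell. The median GC content of tested members was 41.4%, 40.4%, 39.4% and 46.3% in these 4 blocks.

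In the other blocks the ratio rose for 0 to 2 members each. Their shares overlapped with those of the blocks above, as 9.52% rose from ZNF575 to ZNF296 and 5.56% from ZNF628 to ZNF446. With so few tested members, the counts do not set the other blocks apart. Of 13 tested members from ZNF557 to ZNF846 (chr19:7069714-9903856), 5 (38.5%) were nuclear and 2 cytoplasmic, and of 14 from ZNF653 to ZNF791 (chr19:11594242-12750912) 8 (57.1%) were nuclear. By edgeR and by DESeq2 the ratio rose for 0 members of either block, and at an unadjusted p under 0.05 in edgeR it was higher for 1 member of each. From ZNF575 to ZNF296 (chr19:44029649-45579736) 11 of 21 tested members (52.4%) were nuclear and 2 (9.52%) rose. The smallest blocks, ZNF554 to ZNF77 and ZNF302 to ZNF792, had 4 and 5 tested members, of which 3 and 2 were nuclear and 0 and 1 rose by edgeR (0 and 2 at an unadjusted p under 0.05, 0 and 0 by DESeq2). The median GC content was 42.7%, 42.1%, 43.1%, 46.7% and 43.4% in these 5 blocks.

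Members with well studied roles were mostly low in these cells. ZNF91 and ZNF93, which bind retrotransposons of the SVA and LINE-1 families, had 23 to 46 and 0 to 9 counts in every library outside the RNAi cytoplasm, and only ZNF91 was tested. ZNF91 was at 2.39 to 3.16 CPM in control nuclei, 2.50 to 3.34 CPM in RNAi nuclei, 1.40 CPM in control cytoplasm and 0.779 and 0.328 CPM in RNAi cytoplasm, with a nuclear change of 0.03 (edgeR adjusted p = 0.958) and a ratio change of 1.28 (adjusted p = 0.162). Without RNAi cytoplasmic library 1 the ratio of ZNF91 was called (2.10, edgeR adjusted p = 0.0895), and over all alternatives its adjusted p ran from 0.0895 to 0.98. ZNF274, which brings SETDB1 to the 3′ ends of other zinc finger genes, was at 6.94 to 8.05 CPM in control nuclei, 7.16 to 7.51 CPM in RNAi nuclei, 6.51 CPM in control cytoplasm and 4.67 and 5.58 CPM in RNAi cytoplasm.

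ZNF224 was at 3.34 to 5.43 CPM in control nuclei and 6.39 to 8.21 CPM in RNAi nuclei, groups that did not overlap, with a change of 0.70 (edgeR adjusted p = 0.308). In RNAi cytoplasm it was at 15 and 0 counts, and the ratio change of 1.16 (adjusted p = 0.459) became 7.30 (0.0287) without RNAi cytoplasmic library 1, a fitted value against 0 counts that is no bound. ZNF382 gave 1.35 (adjusted p = 0.237), and 2.00 (0.0331) without control nuclear library 1. ZNF350, a partner of BRCA1, gave 1.92 (0.251), ZNF304 0.15 (0.857) and ZNF568 -0.05 (0.978). ZNF444, which carries a SCAN domain, gave -0.53 (0.231), and -0.78 (0.0676) without RNAi cytoplasmic library 1. ZNF808 had at most 5 counts in any library and was not tested.

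The genes that work with KRAB zinc finger proteins were measured as a fixed list of 21, of which 20 were matched and tested. The ratio rose for 7 of them by edgeR (35.0%, where 10.4% of all genes rose), and the cytoplasmic level fell for 9 (45%, against 14.2%) and rose for 2 (10%, against 10.4%). TASOR, MPHOSPH8 and PPHLN1, which form the HUSH silencing complex, rose in the ratio by 1.64, 1.1 and 0.66 (edgeR adjusted p = 0.00127, 0.031 and 0.0807). TRIM28, the corepressor itself, did not pass the test (-0.57, adjusted p = 0.123), and SETDB1 was higher in RNAi cytoplasm (0.59, adjusted p = 0.0152). With the trend on GC content removed the ratio rose for 2 of the 20 (10%, where 3.13% of all genes rose) and fell for 1 (5.0%, where 1.66% fell).

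Genes with ZNF symbols on other chromosomes and the other genes of chromosome 19 are given for comparison, and the differences between these lists were not tested. Of 220 ZNF genes tested on other chromosomes, the ratio rose for 44 (20%) and fell for 7, with a median of 0.26, and in RNAi cells 90 (40.9%) were higher in the nucleus and 34 lower, with a median of 0.39. Of 816 other protein-coding genes tested on chromosome 19, the ratio rose for 5 and fell for 156, with a median of -0.41 and a median GC content of 60.9%, against 43.0% in the ZNF members. The ZNF members also had longer last exons than all tested genes, with medians of 2868 and 1269 bases. The ZNF genes on other chromosomes shared this, with a median of 2664 bases and a median GC content of 46.8%, where all tested genes had 49.9%. The m6A motif, counted on the transcript strand as GGACT and as that word with A in place of either or both of its first bases, occurred 4.42 times per kb in the median member and 4.24 times in the median tested gene. The density of the motif had a rho of 0.18 with the ratio change over the members and of 0.25 over all tested genes, and no m6A was measured in these files.

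The kind of transcript differed between fractions more than between treatments. Transcripts annotated as retaining an intron held 5.60% to 5.82% of the family's counts in control nuclei and 5.62% to 5.88% in RNAi nuclei, against 1.87% in control cytoplasm and 1.22% and 1.15% in RNAi cytoplasm. The difference between treatments in nuclei was 0.07 percentage points (exact two-sided permutation p = 0.6). Without the 5 most abundant members the nuclear shares were 6.93% to 7.13% and 7.40% to 7.67%, which did not overlap (difference 0.493 points, exact permutation p = 0.1, the smallest that 3 against 3 allows). Over all protein-coding genes the shares were 4.56% to 6.12% in control nuclei and 5.55% to 5.96% in RNAi nuclei, which overlapped. In the cytoplasm they were 3.78% in the control library and 3.57% and 3.49% in the RNAi libraries. A lower cytoplasmic share is therefore not particular to the family.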

How the data were processed

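Salmon tables of 9 libraries were used. The authors prepared the libraries with the Lexogen SENSE mRNA-Seq kit, trimmed reads with cutadapt and quantified them with Salmon against Ensembl release 75, giving for each transcript an estimated count and a TPM value, both as deposited. Software versions and the strand setting of Salmon are not given in the sources used here. The submitters' processing notes name hg19.

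Transcripts were matched to GENCODE release 44 lifted to GRCh37. Of 215170 listed, 183122 (85.1%) matched, and the rest were left out. Each gene was given the rounded sum of the estimated counts of its transcripts. Genes with at least 10 counts in at least 3 libraries (16181) were fitted in edgeR 4.0.16 (R 4.3.3) with TMM scaling, 4 groups and quasi-likelihood tests, with 5 residual degrees of freedom and a biological coefficient of variation of 0.1381. The contrasts were RNAi against control in nuclei and in cytoplasm, nucleus against cytoplasm in each treatment, and the change of that ratio. The single control cytoplasmic library is assumed to vary like the other groups. A call needed a Benjamini-Hochberg adjusted p under 0.1, over all genes, and a log2 fold change beyond 0.5. DESeq2 1.42.0, other scalings, filters, a transcript length offset, protein-coding transcripts alone, a replicate block and leaving out each library were alternatives. Removal of a spline trend (5 degrees of freedom) on GC content per library was added after seeing the data. Permutation tests used scipy 1.17.1. On simulated data with 200 genes changed by 1 on the log2 scale among 15683, the nuclear contrast found 90% and the ratio contrast 21%. Unchanged genes made up 12.2% and 6.7% of the calls. The changed genes were drawn from those with higher counts, with the same spread for every gene and no difference between fractions. These shares therefore do not carry over to members with few counts.

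Depth ran from 11627403 to 19036141 estimated counts, and intervals and floors cover counting error only. No pair of replicates agreed within counting noise (chi-square per degree of freedom 5.46 to 64.93).

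The members and gene lists were chosen with earlier results of these data known. Named members were, among called members whose sign held without each library, the 8 highest and 6 lowest for the ratio, and the 5 highest and 5 lowest for the nuclear level and for nucleus against cytoplasm in RNAi cells. To these were added the 5 with the highest mean TPM, 12 with studied roles, 21 partner genes and the siRNA targets. ZNF529 and the members of a block were named after their values were seen. Fingers, linkers and KRAB-like stretches were found by pattern in the longest coding sequence of each gene. The KRAB pattern was loosened after known KRAB genes were missed.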

Additional observations from a re-analysis of the deposited data

Results flagged for a closer look

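For 13 members the change after RNAi differed between nucleus and cytoplasm, by the test of that difference in edgeR (adjusted p under 0.1). The log2 difference, nuclear change minus cytoplasmic change, was 3.41 for ZNF829, 2.70 for ZNF181, 2.61 for ZNF28, 2.46 for ZNF260, 2.37 for ZNF765, 2.33 for ZNF616, 2.28 for ZNF708, 2.22 for ZNF606, 2.17 for ZNF780B and 2.07 for ZNF146. It was -0.74 for ZNF526, -0.67 for ZNF581 and -0.57 for ZNF446. These are the named members among the 25 that were called. Of the 13, ZNF146, ZNF260 and ZNF780B were called with the trend on GC content removed. No group of libraries was tested for a single outlying library, because none held 4.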

How the results depend on the processing

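Among members, the ratio rose for 22 and fell for 3. The number that rose was 3 with the GC trend removed, 5 with a length offset, 11 by DESeq2 or at an adjusted p under 0.05, 12 with 10 counts required in every library, and 12 to 27 without single libraries. The number that fell was 1 with the GC trend removed, 0 by library size, 5 with no filter, and 2 to 6 without single libraries. The nuclear level rose for 5, and for 2 by DESeq2, by library size or at 0.05, 8 with the GC trend removed or 10 counts everywhere, 1 with a length offset, 3 with protein-coding transcripts (1 then fell), and 0 to 8 without single libraries (0 to 1 fell). The cytoplasmic level rose for 11, and for 3 with the GC trend removed or by library size, 7 at 0.05 and 7 to 13 without single libraries. It fell for 21, and for 8 by DESeq2, 2 with the GC trend removed, 13 with 10 counts everywhere, 7 with a length offset, 33 by library size, 11 at 0.05 and 11 to 27 without single libraries. In RNAi cells 112 were higher in the nucleus, 58 with 10 counts everywhere (108 members tested) and 95 to 112 without single libraries. In control cells 46 were higher, 28 by DESeq2 and 75 with the GC trend removed, and 13 were lower, 8 with protein-coding transcripts. Of 245 members, 191 passed the filter, 94 at 50 counts. Beside the main fit, shares over all genes were counted only with the GC trend removed and, for nucleus against cytoplasm in RNAi cells, without 1 RNAi cytoplasmic library. The other counts here stand without a background, and the shares of the main fit do not apply to them. The causes were not tested.

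Changes of the ratio that turned sign were all uncalled. ZNF304 (0.15) was -0.01 without RNAi nucleus 1. ZNF358 (0.07) was -0.03 with a length offset and -0.05 to 0.33 without single libraries. ZNF414 (-0.39) was 0.06 with the GC trend removed, 0.29 with a length offset and 0.00 without RNAi cytoplasm 2. ZNF568 (-0.05) was 0.06 with 10 counts everywhere, 0.20 with a length offset, 0.24 by library size, 0.12 with protein-coding transcripts and -0.42 to 0.37 without single libraries. ZNF576 (-0.11) and ZNF580 (-0.13) were both 0.31 with the GC trend removed, 0.18 and 0.14 by library size, and ran from -0.30 to 0.15 and from -0.24 to 0.02 without single libraries, with the highest value without RNAi cytoplasm 2 for both.

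The deviations of same-numbered libraries were weakly correlated, all with a positive sign (r = 0.185, 0.11 and 0.042 in nuclei, 0.1 and 0.037 between RNAi fractions). Differently numbered libraries were not compared, so these values do not decide whether the numbers pair the libraries. The main fit did not take them to. With a replicate block the ratio rose for 27 and fell for 10, and ZNF568 was 0.03. The shares of all genes that rose or fell with the block were not counted. In the block ZNF350 (2.95, adjusted p = 0.0442) and ZNF444 (-0.68, 0.0248) were called.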
